A study of Rattus norvegicus with 15 samples.

Results

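Among 714 tRNA-derived small RNAs (tsRNAs) counted in the left ventricle of 15 rats, 35 were fragments (tRFs) of proline and phenylalanine tRNAs, taken by their names, which begin with tRF-Pro- or tRF-Phe-. They comprised 13 tRFs of the proline tRNA with anticodon TGG, 10 of Pro-AGG, 1 of Pro-CGG and 11 of Phe-GAA. The samples were Sprague-Dawley rats in 3 groups of 5. The first group was placed on caloric restriction and then given isoproterenol (the restricted group), the second received isoproterenol alone, and the third was untreated (control). Isoproterenol, a beta-adrenergic agonist that overdrives and injures the heart, was the means of inducing myocardial ischemia. No group was restricted without the drug, so that restriction itself and its action on the response to the drug cannot be told apart. The labels name neither the dose and timing of the drug nor the age or sex of the rats.

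Transfer RNAs carry amino acids to the ribosome and read codons with their anticodon. When they are cut, the shorter pieces are called tRFs, and the longer ones made by a cut in the anticodon loop are called tiRNAs. Cells make one set of tRNAs in the nucleus for the cytosol, while the mitochondrial genome encodes its own set for the proteins of the respiratory chain, which heart muscle holds in large amounts. The mitochondrial proline tRNA has the anticodon TGG and the mitochondrial phenylalanine tRNA has GAA. Both anticodons also occur in nuclear tRNAs: the RefSeq annotation of the rat assembly GRCr8 lists 8 nuclear genes named Trnap-ugg and 8 named Trnaf-gaa, beside 92 named Trnap-agg and 4 named Trnap-cgg. A tRF named Pro-TGG or Phe-GAA can therefore come from either genome by its name, while AGG and CGG are anticodons of nuclear tRNAs alone. The deposited names give no sequence and no position within the tRNA, so near-identical tRFs of one isoacceptor may share reads, and each is uncertain as a species of its own. No tRNA sequences were at hand for printing.

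Levels are CPM, the reads of a tRF per 1000000 reads of its library total, as the authors scaled them. These totals were 163818 to 397574 reads in restricted, 106082 to 514565 in isoproterenol and 269508 to 1128887 in control libraries, and the highest was that of control replicate 4. Listed tsRNAs made up 37.0% to 67.3% of the total in restricted, 49.4% to 78.7% in isoproterenol and 24.2% to 35.7% in control libraries. The 35 tRFs together held 612 to 841, 401 to 1080 and 1524 to 6329 reads per library in these groups. A typical tsRNA had a median of 4 to 9 reads in each library, whether the total was low or high, and 1 read was worth 9.43 CPM in isoproterenol replicate 3 but 0.886 CPM in control replicate 4. The labels leave unsaid whether identical reads were collapsed, or reads sampled, before the CPM were made. Had that been done, the CPM, read counts and counting intervals would not be those of all the reads sequenced. A fit with the log2 library total as a covariate, added after the values were seen, is given beside the comparisons. Tests were made with limma on log2(CPM + 1) over 707 tsRNAs, of which 34 were proline or phenylalanine tRFs, and a Benjamini-Hochberg adjusted p under 0.05 over all 707 counted as passed. All log2 fold changes below are on this scale. Over all 707 tsRNAs the log2 fold changes had a median of 1.60 for restricted versus control and 1.26 for isoproterenol versus control. Scaling by the median of ratios left 0.24 and 0.15. Rises in CPM are therefore set against this shift. The table holds only tsRNAs, so the tissue could not be checked against marker genes, and fewer cells of a type cannot be told apart from less RNA per cell.

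The TGG fragments were a smaller part of the pool in both treated groups than in control, where they made up most of it. Their summed level was 1929, 1137, 1320, 1057 and 2186 CPM in restricted replicates 1 to 5, and 1292, 3203, 1471, 1333 and 1590 CPM in isoproterenol replicates, against 4916, 5469, 5491, 5363 and 3446 CPM in control. The lowest control lay above every treated library. Phe-GAA tRFs summed to 1087, 445, 739, 963 and 720 CPM in the restricted group and 453, 578, 914, 332 and 175 CPM in the isoproterenol group, against 421, 323, 378, 145 and 372 CPM in control. Here the isoproterenol and control groups overlapped, while the restricted group lay above control. The other proline tRFs, AGG and CGG, summed to 1032, 493, 698, 970 and 877 CPM in the restricted group and 546, 766, 1395, 669 and 334 CPM in the isoproterenol group, against 307, 151, 263, 98.3 and 175.6 CPM in control. Every treated library was above every control. As sums over chosen fragments these values were not tested.

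**Figure D1:**
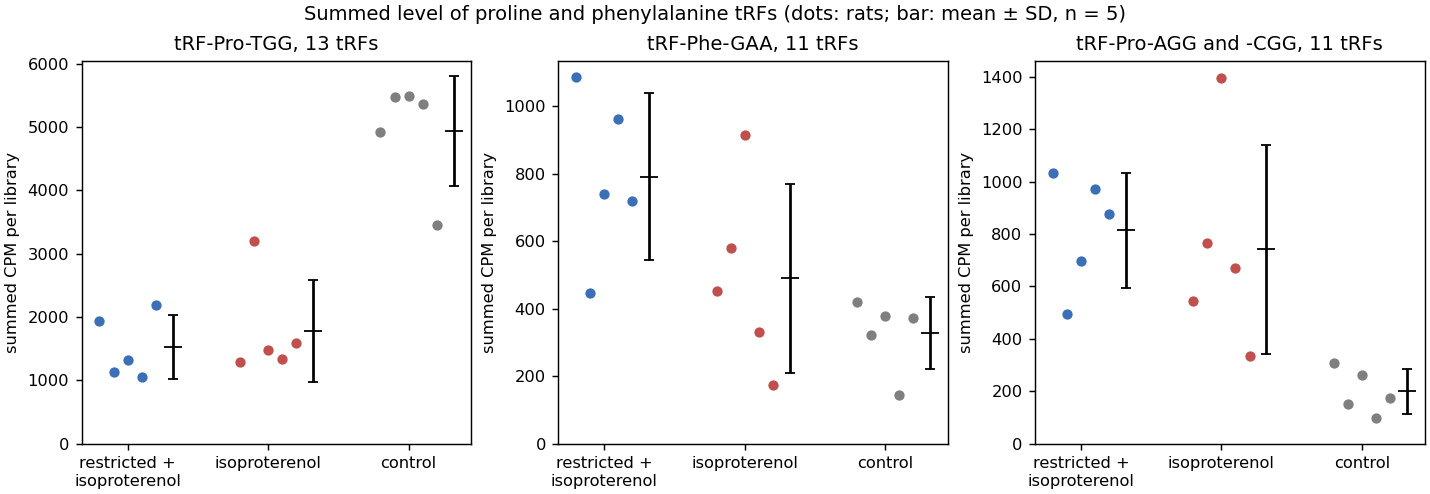
Summed CPM per library (vertical axis, from 0) of the 13 tRF-Pro-TGG, the 11 tRF-Phe-GAA and the 11 tRF-Pro-AGG and -CGG fragments in the restricted plus isoproterenol, isoproterenol and control groups; dots are rats and bars are mean ± SD (n = 5). TGG fragments are highest in all 5 controls (3446 to 5491 CPM), while the other proline fragments are lowest there (98.3 to 307 CPM).

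In shares of the 35 tRFs, Pro-TGG held 48.7% ± 8.65 in restricted, 59.7% ± 14.3 in isoproterenol and 90.1% ± 3.82 in control libraries (SD, n = 5 each). Phe-GAA held 25.3% ± 5.16, 15.8% ± 6.20 and 6.19% ± 2.50 in the same order, and the other proline anticodons held 26.0% ± 3.71, 24.4% ± 8.72 and 3.69% ± 1.50. The TGG sum was thus 1.93 ± 0.541 times that of the other proline tRFs in the restricted and 2.87 ± 1.55 times in the isoproterenol group, against 29.5 ± 16.0 times in control. All 35 tRFs together were a small part of the listed tsRNAs, at 0.688% ± 0.330 in restricted, 0.530% ± 0.281 in isoproterenol and 1.98% ± 0.537 in control ventricles.

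The first comparison, isoproterenol versus control, addressed the drug-induced ischemia. It called 15 of the 34 tested tRFs, where 47.9% of all 707 tsRNAs were called. Of the 12 tested Pro-TGG tRFs, 5 fell and 0 rose, where 12.4% of all tsRNAs fell and 35.5% rose. In the other proline anticodons 6 of 11 rose and 0 fell, and in Phe-GAA 1 of 11 rose and 3 fell. The median log2 fold change was -0.76 in Pro-TGG, -0.50 in Phe-GAA and 1.71 in the other proline tRFs, beside 1.26 in all tsRNAs. Scaled by the median of ratios, the 3 medians were -1.93, -1.34 and 0.76, beside 0.15 in all tsRNAs, and 5 of the 5 TGG falls, 3 of the 3 Phe falls, 2 of the 6 other proline rises and 0 of the 1 Phe rise still passed in the same direction. That scaling lowered most treated values, so falls that pass under it are no independent support. With the log2 library total as a covariate 11 of the 15 calls passed, among them the 5 TGG falls and 3 Phe falls. In that fit 23.2% of all tsRNAs rose and 14.3% fell, against 35.5% and 12.4% without the covariate.

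The member with the highest mean over all 15 libraries, tRF-Pro-TGG-016, owed that place to control, while tRF-Pro-TGG-017 had the higher mean in both treated groups. tRF-Pro-TGG-016 was at 297, 773, 311, 262 and 459 CPM in isoproterenol replicates 1 to 5, against 2127, 2400, 2304, 3002 and 1394 CPM in control. Every treated library was below every control. The mean was 420 ± 211 against 2245 ± 578 CPM (SD, n = 5 each), and the log2 fold change was -2.49 (limma adjusted p = 8.67e-05, SE 0.50). tRF-Pro-TGG-017, second over all libraries, was at 416, 1133, 481, 554 and 548 CPM in isoproterenol libraries, against 1647, 2239, 2111, 1697 and 1216 CPM in control. These groups did not overlap either, and the fall was smaller, at -1.57 (limma adjusted p = 0.00822, SE 0.49). The third over all libraries, tRF-Pro-TGG-018, was at 397, 1000, 462, 307 and 297 CPM in isoproterenol libraries, against 575, 339, 516, 242 and 372 CPM in control. The groups overlapped and it gave no call (0.18, limma adjusted p = 0.794, SE 0.53). Its direction depended on the scaling: it passed as lower with median-of-ratios scaling (-1.07, limma adjusted p = 0.0299), with edgeR and TMM (-0.95, adjusted p = 0.0387) and with DESeq2 (-1.06, adjusted p = 0.0143).

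The make-up of the TGG pool differed between isoproterenol and control libraries. tRF-Pro-TGG-016 made up 23.4% ± 3.52 of the summed TGG level in isoproterenol and 45.1% ± 6.22 in control libraries, while tRF-Pro-TGG-018 made up 27.0% ± 5.82 and 8.52% ± 3.06. tRF-Pro-TGG-017 had a share of 35.3% ± 3.75 in isoproterenol, beside 36.0% ± 3.75 in control. The ratio of tRF-Pro-TGG-018 to tRF-Pro-TGG-016 within a library ran from 0.648 to 1.48 in isoproterenol and from 0.0806 to 0.270 in control. In the restricted group tRF-Pro-TGG-016 made up 28.8% ± 9.14 and tRF-Pro-TGG-018 24.8% ± 7.46 of the summed TGG level. The share of tRF-Pro-TGG-016 overlapped control there, as restricted replicate 2 (40.49%) lay just above control replicate 5 (40.46%). Restricted replicates 1, 3, 4 and 5 lay below every control. The ratio of tRF-Pro-TGG-018 to tRF-Pro-TGG-016 ran from 0.344 to 2.05 in restricted libraries, above every control. These shares and ratios were not tested.

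Of the less abundant TGG fragments, tRF-Pro-TGG-009 had the largest fall. It was at 7.42, 31.3, 0, 9.13 and 19.4 CPM in isoproterenol libraries, against 227, 205, 182, 202 and 220 CPM in control, from 19 reads against 510. Its control values were the most even of the TGG fragments that changed (207 ± 17.6 CPM), and its log2 fold change was -4.54 (limma adjusted p = 2.32e-06, SE 0.72). tRF-Pro-TGG-024, at 0, 15.6, 18.9, 6.09 and 21.4 CPM against 91.5, 80.1, 115, 78.8 and 70.8 CPM in control, fell by 3.31 (SE 0.74, limma adjusted p = 0.000326). tRF-Pro-TGG-023, at 18.6, 15.6, 9.43, 12.2 and 33.0 CPM against 84.2, 89.6, 100.2, 56.7 and 68.1 CPM, fell by 2.20 (SE 0.66, limma adjusted p = 0.00596). In all 3 the groups stood apart, as they did in 5 of 12 tested TGG tRFs, where 8.49% of all tsRNAs were lower without overlap. None of these 5 TGG falls was lost when any single library was left out.

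**Figure D2:**
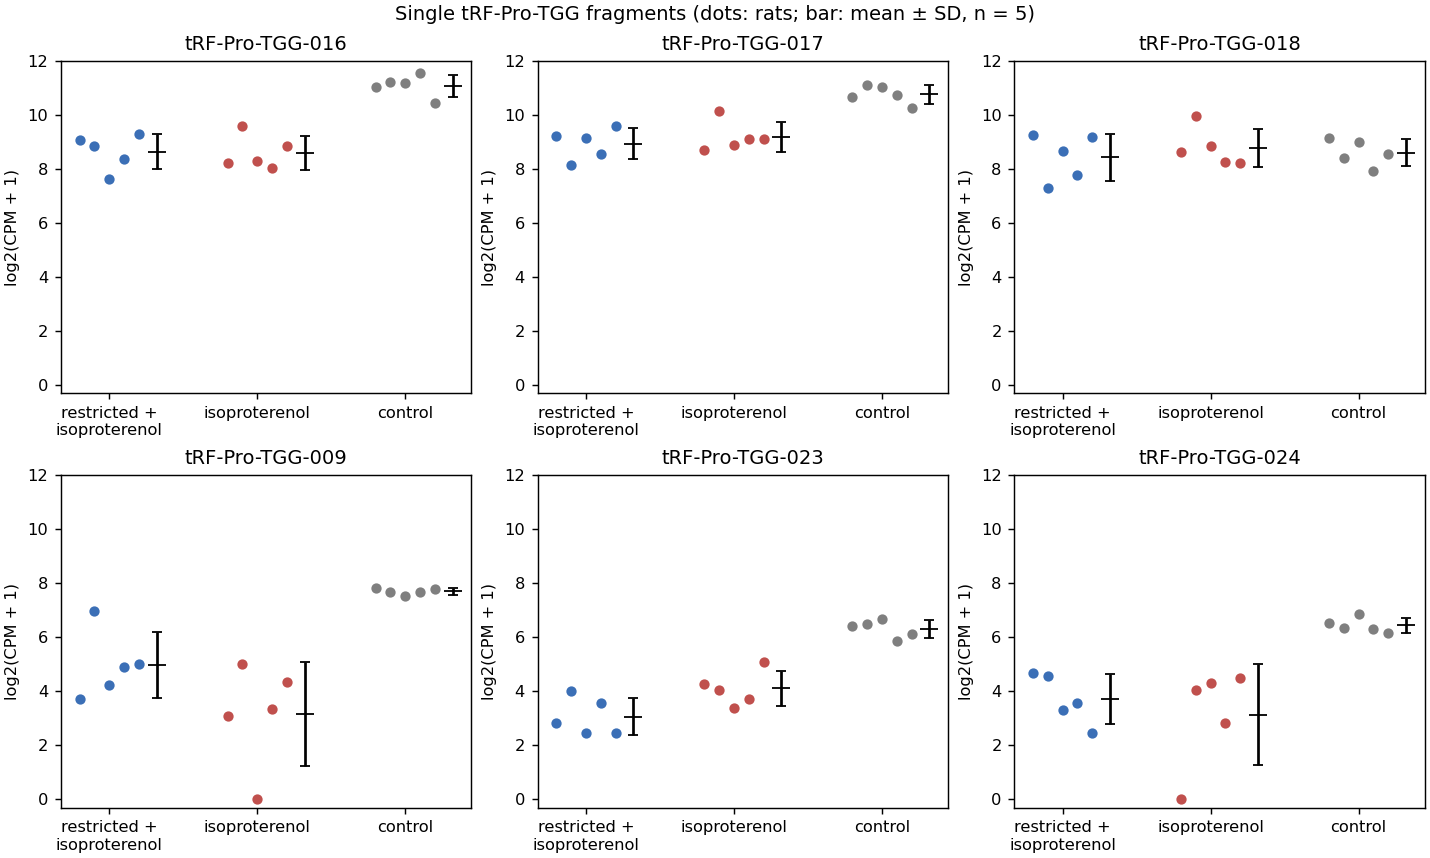
log2(CPM + 1) of 6 tRF-Pro-TGG fragments (vertical axis) in the restricted plus isoproterenol, isoproterenol and control groups; dots are rats and bars are mean ± SD (n = 5). All 5 controls lie above all treated rats for the fragments 016, 017, 009, 023 and 024, while the groups overlap for 018.

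The other 7 tested TGG tRFs gave no call for isoproterenol versus control, with log2 fold changes from -1.84 in tRF-Pro-TGG-002 to 1.95 in tRF-Pro-TGG-007. tRF-Pro-TGG-005 was at 18.3 to 54.7 CPM in isoproterenol and 21.0 to 44.8 CPM in control, and tRF-Pro-TGG-015 at 11.1 to 66.1 and 8.86 to 34.1 CPM (log2 fold changes 0.05 and 0.21). tRF-Pro-TGG-006 was at 7.77 to 56.6 CPM in isoproterenol and 1.77 to 22.3 CPM in control (1.56, limma adjusted p = 0.0703). It passed without control replicate 1 (1.86, limma adjusted p = 0.0425), control replicate 3 (1.86, 0.0439) or isoproterenol replicate 5 (1.99, 0.0190). tRF-Pro-TGG-025 had too few values for the test: it was at 40.8 and 27.4 CPM in isoproterenol replicates 1 and 4 and 22.6 CPM in restricted replicate 2, with 0 reads in the other 12 libraries.

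Among the other proline tRFs the 6 rises were 0.29 to 1.85 above the median of all tsRNAs. tRF-Pro-AGG-021 rose most: it was at 48.3, 31.3, 75.4, 107 and 71.9 CPM in isoproterenol, against 18.3, 4.71, 7.42, 0.886 and 10.5 CPM in control. These groups did not overlap, and it rose by 3.11 (limma adjusted p = 0.000249, SE 0.68), 1.85 above the median of all tsRNAs. tRF-Pro-AGG-020 was at 111, 85.9, 207, 128 and 124 CPM, against 43.9, 18.9, 48.2, 3.54 and 15.7 CPM in control (2.65, SE 0.64, limma adjusted p = 0.000686), 1.40 above that median. It too stood apart from control, so that 2 of 11 did, where 19.0% of all tsRNAs were higher without overlap. Both also passed with median-of-ratios scaling. When the listed tsRNAs were scaled to equal totals, tRF-Pro-AGG-021 passed and tRF-Pro-AGG-020 did not (1.61, limma adjusted p = 0.0825).

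tRF-Pro-AGG-006 had the highest mean of them over all 15 libraries through the restricted group, while tRF-Pro-AGG-019 and tRF-Pro-AGG-020 were higher in isoproterenol and tRF-Pro-AGG-017 in control. It was at 66.8, 109, 311, 79.1 and 58.3 CPM in isoproterenol, against 58.6, 30.6, 44.5, 12.4 and 44.6 CPM in control. Isoproterenol replicate 5 lay just below the highest control, and the log2 fold change of 1.55 (limma adjusted p = 0.0295, SE 0.59) was 0.29 above the median of all tsRNAs. The call was lost in a fit of these 2 groups alone (1.55, limma adjusted p = 0.0517), without control replicate 2 (1.51, limma adjusted p = 0.0589), control replicate 4 (1.20, 0.0875) or isoproterenol replicate 3 (1.14, 0.117), with median-of-ratios scaling (0.33, 0.477) and with the library total as a covariate (0.76, 0.125). tRF-Pro-AGG-026 averaged 85.9 ± 71.0 CPM in isoproterenol and 16.4 ± 7.21 CPM in control (2.02, limma adjusted p = 0.00995). tRF-Pro-AGG-019 averaged 149 ± 125 and 33.1 ± 21.3 CPM (1.97, limma adjusted p = 0.0114) and lost its call without isoproterenol replicate 3 (1.55, limma adjusted p = 0.0537). Neither passed with median-of-ratios scaling (0.83 and 0.76) or with the library total as a covariate (1.08, limma adjusted p = 0.0588, and 0.98, 0.107). tRF-Pro-CGG-002, the only CGG fragment, was scarce: 11 reads in the isoproterenol group and 3 in control gave a ratio of pooled rates of 6.75 (95% counting interval 1.78 to 37.7), and it passed (limma adjusted p = 0.0107) but not with median-of-ratios scaling (limma adjusted p = 0.0650).

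The remaining 5 AGG tRFs gave no call, with log2 fold changes from -0.09 to 1.71. tRF-Pro-AGG-017 was at 96.5, 195, 141, 125 and 5.83 CPM in isoproterenol and 26.2 to 44.5 CPM in control (0.94, limma adjusted p = 0.250). It passed without isoproterenol replicate 5 (1.80, limma adjusted p = 0.0109), the library with the highest total of its group. tRF-Pro-AGG-029 (1.71, limma adjusted p = 0.111) rested on 10 reads in isoproterenol and 4 in control and passed without isoproterenol replicate 4 (2.40, limma adjusted p = 0.0310).

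Of the phenylalanine tRFs the most abundant, highest of them in each group's mean, rose and 3 scarce ones fell after isoproterenol. tRF-Phe-GAA-003 was at 289.5, 297, 679, 243 and 105 CPM, against 194, 123, 134, 13.3 and 183 CPM in control. The groups overlapped through isoproterenol replicate 5, and control replicate 4 was far below the other controls. The log2 fold change was 1.50 (limma adjusted p = 0.0392, SE 0.61), 0.24 above the median of all tsRNAs. The call was lost in a fit of these 2 groups alone (1.50, limma adjusted p = 0.0696), without control replicate 4 (0.81, limma adjusted p = 0.215), isoproterenol replicate 1 (1.47, 0.0610), 2 (1.46, 0.0621) or 3 (1.17, 0.129), with median-of-ratios scaling (0.27, 0.608) and with the library total as a covariate (0.39, 0.480). tRF-Phe-GAA-016 was at 21.4 to 179 CPM in isoproterenol and 12.4 to 44.6 CPM in control (1.27, limma adjusted p = 0.0868), and passed without isoproterenol replicate 5 (1.69, limma adjusted p = 0.0183).

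The Phe-GAA tRFs that fell had few reads. tRF-Phe-GAA-036 was at 0, 0, 0, 6.09 and 1.94 CPM in isoproterenol, against 18.3, 33.0, 22.3, 21.3 and 13.1 CPM in control. With 3 reads against 54, the ratio of pooled rates was 0.102 (95% counting interval 0.0204 to 0.315), and the log2 fold change was -3.56 (limma adjusted p = 0.00075, SE 0.86). tRF-Phe-GAA-020 was at 11.1, 0, 0, 6.09 and 5.83 CPM, against 14.6, 35.4, 26.0, 36.3 and 47.2 CPM (-3.10, SE 0.77, limma adjusted p = 0.000947). tRF-Phe-GAA-022 was at 3.71, 15.6, 9.43, 6.09 and 5.83 CPM, against 54.9, 33.0, 44.5, 31.0 and 28.8 CPM (-2.21, SE 0.78, limma adjusted p = 0.0182). In all 3 the groups did not overlap, so that 3 of 11 stood below control, where 8.49% of all tsRNAs did. These 3 calls held without any single library. The other 7 gave no call, from -1.46 in tRF-Phe-GAA-021 to 1.27 in tRF-Phe-GAA-016.

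**Figure D3:**
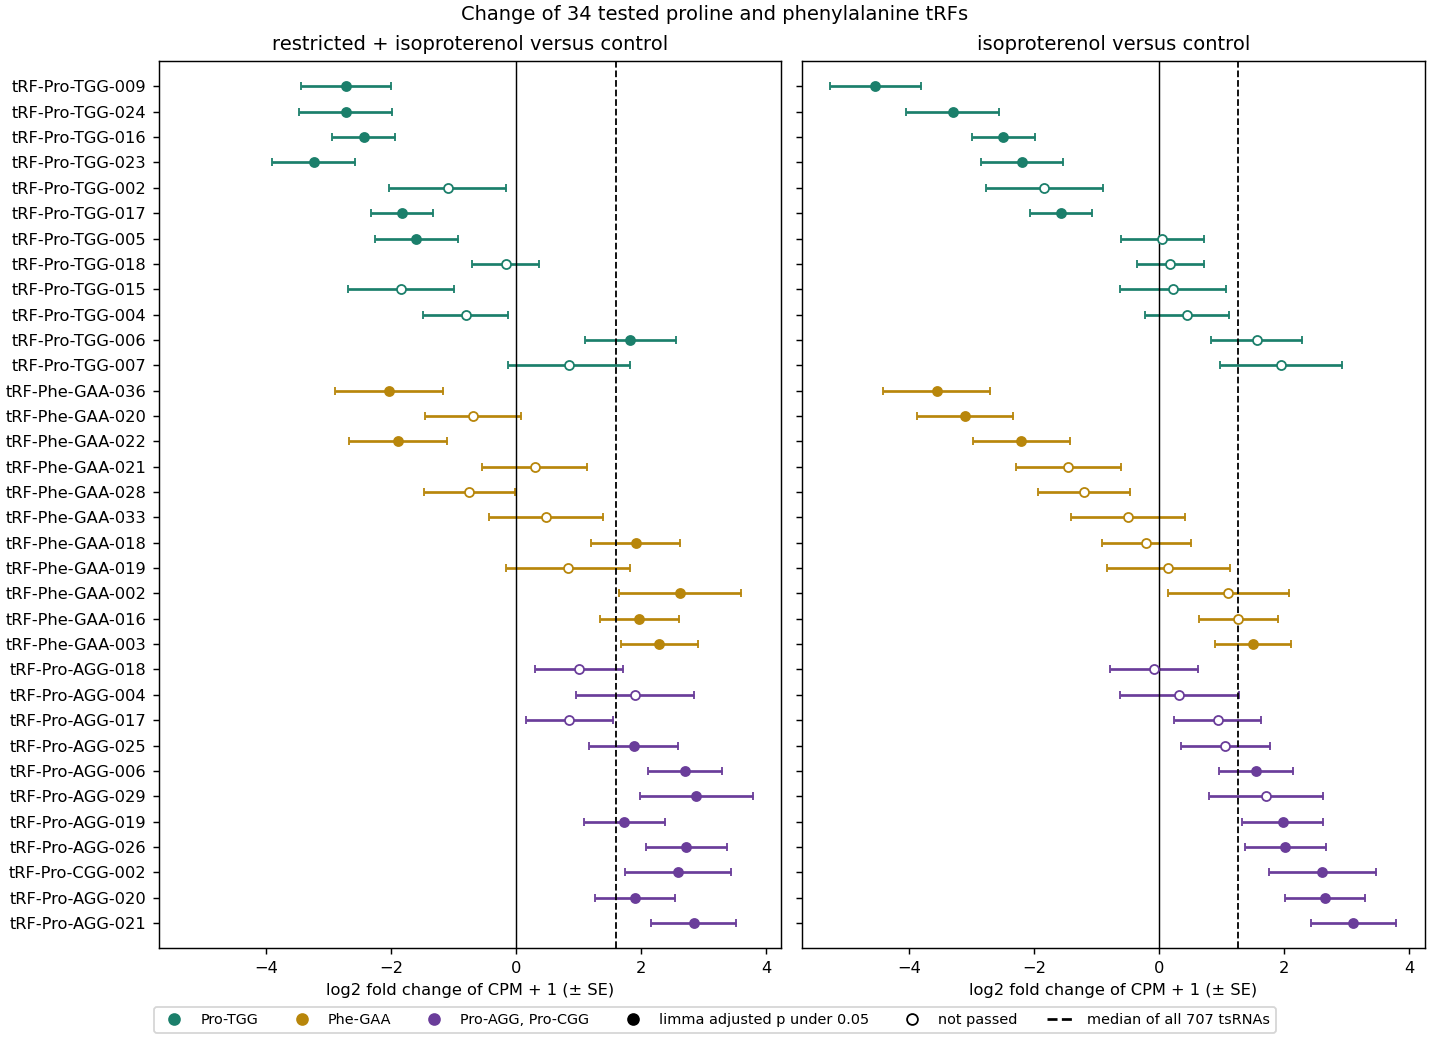
log2 fold change of CPM + 1 (horizontal axis, ± SE) of the 34 tested tRFs for restricted plus isoproterenol versus control and for isoproterenol versus control; filled circles passed (limma adjusted p under 0.05) and the dashed line is the median of all 707 tsRNAs (1.60 and 1.26). Pro-TGG tRFs lie mostly left of the dashed lines, and Pro-AGG and Pro-CGG tRFs lie around and right of them.

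The restricted group was also set against control, and 21 of the 34 tested tRFs were called, where 58.4% of all tsRNAs were. The comparisons share the control libraries, so their values are given side by side and are not independent. In Pro-TGG 6 of 12 tested tRFs fell and 1 rose, where 10.7% of all tsRNAs fell and 47.7% rose. In the other proline anticodons 8 of 11 rose and 0 fell, and in Phe-GAA 4 of 11 rose and 2 fell. The log2 fold changes had a median of -1.71 in Pro-TGG and 1.90 in the other proline tRFs, beside 1.60 in all tsRNAs. With median-of-ratios scaling these were -3.14 and 0.65, beside 0.24. The Phe-GAA median was 0.48 as deposited but -0.88 with median-of-ratios scaling and -0.08 with the listed tsRNAs scaled to equal totals. Under median-of-ratios scaling 6 of the 6 TGG falls and 2 of the 2 Phe falls still passed, while 3 of the 8 other proline rises, 0 of the 4 Phe rises and 0 of the 1 TGG rise did. With the log2 library total as a covariate 13 of the 21 calls passed: 6 of the 6 TGG falls, 5 of the 8 other proline rises and 2 of the 4 Phe rises, but 0 of the 2 Phe falls and 0 of the 1 TGG rise. In that fit 36.9% of all tsRNAs rose and 10.9% fell, against 47.7% and 10.7% without the covariate.

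tRF-Pro-TGG-016 was at 543, 460, 198, 333 and 630 CPM in restricted replicates 1 to 5, all below the lowest control (1394 CPM). Its log2 fold change was -2.44 (limma adjusted p = 0.000146, SE 0.50). tRF-Pro-TGG-017 was at 592, 284, 563, 376 and 783 CPM, again below every control (-1.83, SE 0.49, limma adjusted p = 0.00201). tRF-Pro-TGG-018 was at 610, 158, 405, 217 and 589 CPM and gave no call (-0.17, limma adjusted p = 0.795), but it passed as lower with median-of-ratios scaling (-1.79, limma adjusted p = 0.000776). It also passed as lower with edgeR and TMM (-1.63, adjusted p = 0.0011) and with DESeq2 (-1.79, adjusted p = 1.1e-05).

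The 3 scarcer TGG tRFs fell here as well. tRF-Pro-TGG-009 was at 12.2, 123, 18.0, 29.0 and 31.5 CPM in the restricted group, where replicate 2 was far above the others but below the control range of 182 to 227 CPM (-2.73, SE 0.72, limma adjusted p = 0.00178). tRF-Pro-TGG-023 was at 4.50 to 15.1 CPM against 56.7 to 100.2 CPM in control (-3.24, SE 0.66, limma adjusted p = 0.000129). tRF-Pro-TGG-024 was at 4.50 to 24.4 CPM against 70.8 to 115 CPM (-2.73, SE 0.74, limma adjusted p = 0.00212). In 6 of 12 tested TGG tRFs the restricted group was lower without overlap, where 9.19% of all tsRNAs were.

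tRF-Pro-TGG-005 was the sixth to fall, at 3.62 to 18.3 CPM against 21.0 to 44.8 CPM in control (-1.60, SE 0.66, limma adjusted p = 0.0346). Its call was lost without control replicate 1, 2, 3 or 4 or restricted replicate 2 or 4 (-1.26 to -1.65, limma adjusted p = 0.0508 to 0.114). tRF-Pro-TGG-006 was the TGG tRF that rose, at 17.6 to 54.3 CPM against 1.77 to 22.3 CPM (1.83, SE 0.73, limma adjusted p = 0.0279), 0.23 above the median of all tsRNAs. It did not pass without control replicate 2 or 4 or restricted replicate 3 or 4 (1.37 to 1.70, limma adjusted p = 0.0627 to 0.108), nor with median-of-ratios scaling (0.37, 0.604) or the library total as a covariate (0.95, 0.163). tRF-Pro-TGG-015, at 0 to 54.0 CPM against 8.86 to 34.1 CPM, just missed the threshold (-1.85, limma adjusted p = 0.0565). It passed without control replicate 4 or restricted replicate 1, 2 or 5 (-2.04 to -2.62, limma adjusted p = 0.0104 to 0.0464), with the replicate number as a block (limma adjusted p = 0.0337) and with median-of-ratios scaling (-3.14, limma adjusted p = 0.00555).

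tRF-Pro-AGG-006 was at 324, 138, 248, 311 and 171 CPM in the restricted group, above every control (12.4 to 58.6 CPM). It rose by 2.70 (SE 0.59, limma adjusted p = 0.000293), 1.10 above the median of all tsRNAs. tRF-Pro-AGG-026, at 128, 65.4, 131, 148 and 72.0 CPM against 5.31 to 23.6 CPM in control, rose by 2.72 (SE 0.65, limma adjusted p = 0.000689), and tRF-Pro-AGG-021, at 35.2 to 128 CPM against 0.886 to 18.3 CPM, by 2.84 (SE 0.68, limma adjusted p = 0.000689). These 3 are the rises that also passed with median-of-ratios scaling. tRF-Pro-AGG-021 was lost with edgeR and TMM (1.44, adjusted p = 0.0583) and with DESeq2 (1.42, adjusted p = 0.0614), and tRF-Pro-AGG-026 with median-of-ratios scaling and the library total as a covariate together (0.99, limma adjusted p = 0.0916). In 5 of the 11 other proline tRFs the restricted group lay above every control, where 31.1% of all tsRNAs did. Of the other proline rises that passed, tRF-Pro-AGG-019, tRF-Pro-AGG-025 and tRF-Pro-AGG-020 were only 0.13, 0.28 and 0.30 above the median of all tsRNAs. The rest were 0.98 to 1.28 above it.

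Of the other proline rises that did not pass with that scaling, tRF-Pro-AGG-020 averaged 81.0 ± 37.5 against 26.1 ± 19.2 CPM (1.90, limma adjusted p = 0.00996), and tRF-Pro-AGG-029 19.0 ± 17.8 against 2.15 ± 3.18 CPM (2.88, limma adjusted p = 0.00658). tRF-Pro-CGG-002 had 11 reads against 3, a ratio of pooled rates of 7.08 (95% counting interval 1.87 to 39.6; limma adjusted p = 0.00898). tRF-Pro-AGG-019 (1.73, limma adjusted p = 0.0205) was lost without control replicate 2 or 4 or restricted replicate 1 or 4 (1.38 to 1.60, limma adjusted p = 0.0516 to 0.0658). tRF-Pro-AGG-025 (1.88, limma adjusted p = 0.0210) was lost without control replicate 2 or 4 or restricted replicate 5 (1.55 to 1.66, limma adjusted p = 0.0576 to 0.0804). With the library total as a covariate tRF-Pro-AGG-019 (0.85, limma adjusted p = 0.124), tRF-Pro-AGG-025 (1.34, 0.0576) and tRF-Pro-AGG-029 (2.10, 0.0636) did not pass. The 3 without a call were tRF-Pro-AGG-004 (1.90), tRF-Pro-AGG-018 (1.01) and tRF-Pro-AGG-017 (0.85), and in restricted replicate 5 tRF-Pro-AGG-018 stood at 189 CPM and tRF-Pro-AGG-017 at 198 CPM, above their other restricted libraries (13.5 to 75.5 CPM).

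tRF-Phe-GAA-003 was at 775, 257, 473, 612 and 414 CPM in the restricted group, above every control (13.3 to 194 CPM). It rose by 2.29 (limma adjusted p = 0.00182, SE 0.61), 0.69 above the median of all tsRNAs. With median-of-ratios scaling its log2 fold change was 0.69 and did not pass (limma adjusted p = 0.145). tRF-Phe-GAA-016, at 60.4 to 165 CPM against 12.4 to 44.6 CPM, rose by 1.97 (SE 0.63, limma adjusted p = 0.00721), 0.37 above that median. Its call was lost with median-of-ratios scaling (0.38, limma adjusted p = 0.445), alone or with the library total as a covariate (0.22, 0.708). It was also lost with the listed tsRNAs scaled to equal totals (1.21, limma adjusted p = 0.165), with edgeR and TMM (0.50, adjusted p = 0.260) and with DESeq2 (0.40, adjusted p = 0.404). tRF-Phe-GAA-018, at 30.2 to 58.5 CPM against 3.54 to 29.7 CPM, rose by 1.91 (SE 0.72, limma adjusted p = 0.0202), 0.31 above that median. Its call was lost without control replicate 4 (1.57, limma adjusted p = 0.0704), with the library total as a covariate (1.45, 0.0565) and with median-of-ratios scaling (0.39, 0.605). tRF-Phe-GAA-002 had 14 reads against 1, a ratio of pooled rates of 27.1 (95% counting interval 4.12 to 1144). It passed (2.62, limma adjusted p = 0.0193), 1.02 above that median, but not without restricted replicate 1 (limma adjusted p = 0.0755) or with the library total as a covariate (2.42, 0.0615). The call was also lost with median-of-ratios scaling (2.07, limma adjusted p = 0.0681), alone or with that covariate (2.02, 0.118), and with DESeq2 (2.49, adjusted p = 0.112). In 3 of the 11 Phe-GAA tRFs the restricted group lay above every control, where 31.1% of all tsRNAs did. In 0 of them it lay below every control, where 9.19% did.

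Of those that fell, tRF-Phe-GAA-022 was at 6.10, 27.7, 0, 29.0 and 18.0 CPM in the restricted group, against 28.8 to 54.9 CPM in control (-1.90, SE 0.78, limma adjusted p = 0.0336). Its call was lost without control replicate 1, 2 or 3 or restricted replicate 1 or 3 (-1.05 to -1.94, limma adjusted p = 0.0521 to 0.219) and with the library total as a covariate (-1.97, 0.0514). tRF-Phe-GAA-036 was at 0, 5.03, 4.50, 21.7 and 4.50 CPM against 13.1 to 33.0 CPM (-2.04, SE 0.86, limma adjusted p = 0.0384), a call lost without control replicate 1, 2, 3 or 4 or restricted replicate 1, 3 or 5 (-1.43 to -2.08, limma adjusted p = 0.0532 to 0.153) with a pseudocount of 0.5 CPM (-2.29, limma adjusted p = 0.0575) and with the library total as a covariate (-1.46, 0.149). tRF-Phe-GAA-020 was at 12.2 to 27.7 CPM against 14.6 to 47.2 CPM and gave no call (-0.70, limma adjusted p = 0.432). It did pass as lower with median-of-ratios scaling (-2.25, limma adjusted p = 0.0294) and with DESeq2 (-2.60, adjusted p = 0.000897).

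The third comparison, restricted versus isoproterenol, addressed restriction before the drug. No proline or phenylalanine tRF passed, and none of the 707 tsRNAs did (0% called). An unadjusted p under 0.05 was reached by 6 of 34, where 16.4% of all tsRNAs reached it. With DESeq2 on the recovered reads 34 of all tsRNAs and 1 of the 35 tRFs were called. With edgeR on them it was 1 of the 347 tsRNAs and 0 of the 18 tRFs it kept. The median log2 fold change was -0.30 in Pro-TGG, 0.98 in Phe-GAA and 0.70 in the other proline tRFs, beside 0.44 in all tsRNAs. All 11 Phe-GAA tRFs had a log2 fold change above 0, from 0.31 to 2.41, where 468 of the 707 tsRNAs did.

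The smallest p belonged to tRF-Phe-GAA-020, at 12.2, 27.7, 22.5, 18.1 and 13.5 CPM in the restricted and 11.1, 0, 0, 6.09 and 5.83 CPM in the isoproterenol group (log2 fold change 2.41, limma adjusted p = 0.204, SE 0.77). tRF-Phe-GAA-018 was at 48.8, 30.2, 58.5, 36.2 and 45.0 CPM against 18.6, 7.81, 9.43, 18.3 and 1.94 CPM (2.12, SE 0.72, limma adjusted p = 0.204). Both stood above the isoproterenol group without overlap, which 0.990% of all tsRNAs did, while 0 of 34 stood below it, where 0.707% did. tRF-Phe-GAA-020 and tRF-Phe-GAA-018 both passed with the log2 library total as a covariate (2.30 and 2.18, limma adjusted p = 0.0291 each), as did tRF-Pro-AGG-006 (1.25, limma adjusted p = 0.0334). The same covariate ended calls in the comparisons with control, as given there. tRF-Pro-TGG-009 was at 42.8 ± 45.7 against 13.4 ± 12.1 CPM (1.82, limma adjusted p = 0.237).

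With lower values, tRF-Pro-TGG-005 was at 18.3, 7.55, 18.0, 3.62 and 13.5 CPM in the restricted and 29.7, 54.7, 37.7, 18.3 and 48.6 CPM in the isoproterenol group. The groups overlapped narrowly at 18.3 CPM, and the log2 fold change of -1.65 (SE 0.66) did not pass (limma adjusted p = 0.237). DESeq2 on the recovered reads called it lower (-2.21, adjusted p = 0.0340). tRF-Pro-TGG-015 was at 16.5 ± 22.3 against 32.9 ± 23.6 CPM (-2.06, limma adjusted p = 0.238). The abundant TGG tRFs were close to 0 on this scale, at 0.06 in tRF-Pro-TGG-016 (SE 0.50), -0.26 in tRF-Pro-TGG-017 (SE 0.49) and -0.35 in tRF-Pro-TGG-018 (SE 0.53).

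Ratios within a library hardly depend on how the library is scaled, so the TGG and GAA tRFs with the highest mean over all 15 libraries were each set against tRF-Pro-AGG-006, the tRF of the other proline anticodons with the highest such mean. tRF-Pro-TGG-016 had 1.68, 3.33, 0.80, 1.07 and 3.68 times the CPM of tRF-Pro-AGG-006 in restricted libraries and 4.44, 7.07, 1.00, 3.31 and 7.87 times in isoproterenol libraries, against 36.3, 78.3, 51.8, 242 and 31.3 times in control. All treated libraries were below all controls. The mean log2 ratio was 0.82 ± 0.97 in restricted, 1.92 ± 1.19 in isoproterenol and 5.96 ± 1.15 in control libraries (SD, n = 5 each). It differed by -5.14 between restricted and control, by -4.04 between isoproterenol and control and by -1.10 between restricted and isoproterenol. tRF-Pro-TGG-016 leads through control and tRF-Pro-AGG-006 through the restricted group, so that this pair favours a lower ratio in treated libraries, and no p is given.

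The pair chosen the opposite way was tRF-Pro-TGG-017, highest in the treated libraries, and tRF-Pro-AGG-017, highest in control. Its ratio was 10.8, 3.77, 20.8, 5.20 and 3.95 in restricted and 4.31, 5.80, 3.40, 4.44 and 94.0 in isoproterenol, against 37.5, 55.9, 47.4, 43.5 and 46.4 in control. Isoproterenol replicate 5, where tRF-Pro-AGG-017 was low, lay above every control, and the other 9 treated libraries lay below them. The log2 ratio was 2.80 ± 1.05 in restricted, 2.97 ± 1.90 in isoproterenol and 5.48 ± 0.21 in control, and differed by -2.68 between restricted and control and by -2.51 between isoproterenol and control. This pair was chosen after seeing the values and was not tested.

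**Figure D4:**
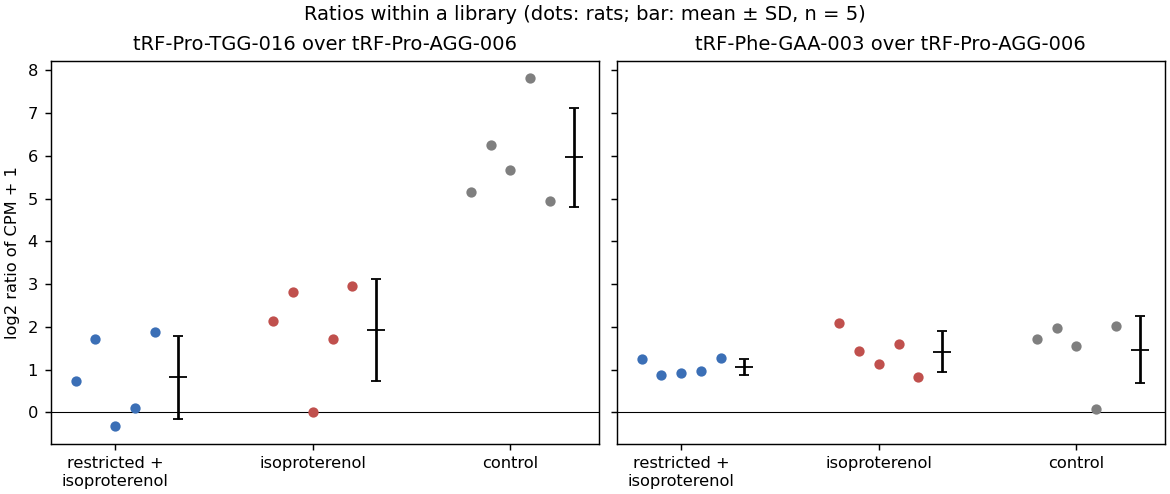
log2 ratio of CPM + 1 within each library (vertical axis) of tRF-Pro-TGG-016 and of tRF-Phe-GAA-003 to tRF-Pro-AGG-006 in the restricted plus isoproterenol, isoproterenol and control groups; dots are rats and bars are mean ± SD (n = 5). The TGG ratio is at most 2.95 in all treated rats and at least 4.94 in all controls, while the GAA ratios overlap between all groups.

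The ratio of tRF-Phe-GAA-003 to tRF-Pro-AGG-006 was 2.40, 1.85, 1.91, 1.97 and 2.42 in restricted, 4.33, 2.71, 2.18, 3.08 and 1.80 in isoproterenol and 3.31, 4.00, 3.00, 1.07 and 4.12 in control libraries, and the groups overlapped. The log2 ratio was 1.06 ± 0.19, 1.42 ± 0.48 and 1.47 ± 0.79 in the same order. It differed by -0.05 between isoproterenol and control, by -0.41 between restricted and control (-0.75 without control replicate 4) and by -0.36 between restricted and isoproterenol. These values depended on the tRFs chosen. From summed CPM of Phe-GAA and of the other proline tRFs the log2 ratio differed by -1.39 between isoproterenol and control and by 0.59 between restricted and isoproterenol. Set against tRF-Pro-AGG-017, tRF-Phe-GAA-003 differed by 1.44 between restricted and control and by 0.88 between restricted and isoproterenol.

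The tiRNAs of the same tRNAs were few, at 3 in the table. tiRNA-Pro-TGG-003 was at 266 ± 97.8 CPM in restricted, 258 ± 93.0 in isoproterenol and 774 ± 198 in control ventricles. It fell in both treated groups (restricted versus control -1.59, limma adjusted p = 0.00754; isoproterenol versus control -1.61, limma adjusted p = 0.00871), and all treated libraries lay below all controls. tiRNA-Pro-CGG-001 and tiRNA-Phe-GAA-002 gave no call in either comparison, at means of 1.35 to 19.2 CPM in the 3 groups.

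The other tsRNAs are given by whether the mitochondrial genome also has their anticodon. Of 412 tested tsRNAs with an anticodon of that genome, proline and phenylalanine tRFs left out, 130 rose and 75 fell for isoproterenol versus control (median log2 fold change 0.77). Of the 261 with other anticodons 114 rose and 5 fell (median 1.56). For restricted versus control these counts were 158 and 66 (median 1.18), and 166 and 2 (median 2.14). Trp-TCA, an anticodon that mammalian cells use for tryptophan in mitochondria alone, had 2 of 16 members higher and 9 lower for isoproterenol versus control, with a median of -2.14. For restricted versus control 2 of them were higher and 7 lower, with a median of -1.51. Most of the listed mitochondrial anticodons also belong to nuclear tRNAs, and these counts were not tested against each other.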

How the data were processed

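Left-ventricle RNA of 15 rats (1 library each) was pretreated against modifications that block library making and selected for inserts of 14 to 40 nt, per the labels' protocols. The authors deposited CPM per tsRNA; the submitters' processing notes name cutadapt and edgeR with neither version nor role, and for aligner, tRNA reference and build, the sources used here give none. Every deposited CPM value was a multiple of what 1 read is worth in its library (100% whole within 0.001 reads), which gave back library totals and reads. As amplified reads are not independent molecules, intervals cover counting error only.

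limma 3.58.1 (R 4.3.3, eBayes with trend, 15 libraries in 1 model) was run on log2(CPM + 1) for tsRNAs reaching 1 CPM in 5 or more libraries, two-sided. As alternatives, edgeR 4.0.16 (quasi-likelihood) and DESeq2 1.42.0 were run on the recovered reads. Of the 347 tsRNAs that edgeR kept with the authors' totals, it called 261 (restricted versus control), 236 (isoproterenol versus control) and 1 (restricted versus isoproterenol). Ratios within libraries (Python 3.11.15) are given without a test, in place of the planned permutation test, because their tRFs were picked by levels in these libraries. The fit was also run on simulated data. These held no shift common to all tsRNAs, so they did not test the fit under the shift seen here. Given in full were tRFs that passed in a comparison, the 10 most abundant and, where fewer than 5 passed, the 5 with the smallest p. The tRFs, lists and tests were chosen with earlier results of these data known. No pair of libraries within a group was a duplicate (10 pairs per group, chi-square per degree of freedom at least 7.52). Pairs between groups were not checked. The labels number the rats and say no more of them, so p-values measure the spread between these libraries.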

Additional observations from a re-analysis of the deposited data

Results flagged for a closer look

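In 81 groups of 5 values (25 named tRFs and 2 ratios in 3 groups), 7 had a library standing far from its 4 fellows by Dixon's test on the log2 scale, where chance gives about 1 in 20. In control, replicate 4, the library with the highest total, was lowest for tRF-Phe-GAA-003 at 13.3 CPM and for the log2 ratio of tRF-Phe-GAA-003 to tRF-Pro-AGG-006 at 0.092. Control replicate 5 was lowest for tRF-Pro-AGG-017 at 26.2 CPM. Control replicate 3 was highest for tRF-Phe-GAA-002 at 3.71 CPM, which is 1 read, where the other controls had none. In the isoproterenol group, replicate 5 was lowest for tRF-Pro-AGG-017 at 5.83 CPM, and replicate 2 was highest for tRF-Pro-TGG-017 at 1133 CPM. In the restricted group, replicate 1 was highest for tRF-Pro-AGG-021 at 128 CPM.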

How the results depend on the processing

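With another scaling or count model, restricted versus control gave 253 calls among all tsRNAs (median of ratios) and 269 (DESeq2), against 413 of 707 with limma. edgeR kept fewer tsRNAs for testing, and called 261 of 347 (authors' totals) and 153 of 317 (TMM). For isoproterenol versus control there were 219 calls (listed tsRNAs at equal totals) and 144 of 317 (edgeR, TMM), against 339 of 707. The edgeR counts are therefore shares of a smaller set. The share of calls that were higher was 42.3% with median-of-ratios scaling and 66.2% with equal listed totals, against 81.6% as deposited, for restricted versus control, and 45.1% and 45.2%, against 74.0%, for isoproterenol versus control. With edgeR and TMM, 10 and 8 of the 16 proline and phenylalanine tRFs it kept were called in these comparisons, against 21 and 15 of 34. Of these 21 and 15 calls, 13 and 11 had a value and 8 and 7 of those passed. With the authors' totals edgeR kept 14 of 14 and 11 of 11. Restricted versus isoproterenol gave 1 call among all tsRNAs with a pseudocount of 5 CPM, 1 with edgeR and the authors' totals and 34 with DESeq2, of which 1 was among these tRFs. With the log2 library total as a covariate, chosen after seeing the data, it gave 43 calls, 3 among these tRFs. With that covariate and median-of-ratios scaling it gave 26 calls, 1 among these tRFs, and restricted versus control gave 222.

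Signs turned in some named tRFs, with the cause not tested. Where the main fit or the alternative passed, they turned for tRF-Phe-GAA-003 (isoproterenol versus control, -0.071) and tRF-Pro-AGG-019 (restricted versus control, -0.061) under the covariate with median-of-ratios scaling. They also turned for tRF-Pro-TGG-018 (isoproterenol versus control) with median-of-ratios scaling (-1.07), edgeR and TMM (-0.95) and DESeq2 (-1.06). Where neither passed, signs near 0 turned as well, such as that of tRF-Pro-TGG-005 (isoproterenol versus control, -0.12 to 0.28 without 1 library at a time). From summed CPM of the isoacceptors the log2 ratio differed by -3.82 for Pro-TGG (restricted versus control), and for Phe-GAA by -1.39 (isoproterenol versus control) and, with the sign turned, 0.59 (restricted versus isoproterenol). With the numerator highest in treated libraries and the denominator highest in control, chosen after seeing the data, it differed for Pro-TGG by -2.68 (restricted versus control) and -2.51 (isoproterenol versus control), and for Phe-GAA, with the sign turned, by 1.44 (restricted versus control), 0.56 (isoproterenol versus control) and 0.88 (restricted versus isoproterenol). The library total as a covariate left 13 of 21 (restricted versus control) and 11 of 15 calls (isoproterenol versus control) among these tRFs. Of all tsRNAs 36.9% and 23.2% were then higher and 10.9% and 14.3% lower in these comparisons.

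Without 1 library at a time, calls among all tsRNAs ran from 351 to 437 (restricted versus control), 273 to 389 (isoproterenol versus control) and 0 to 0 (restricted versus isoproterenol), and among these tRFs from 15 to 22, 12 to 20 and 0 to 0. The Pro-TGG ratio then differed by -5.40 to -4.68, -4.30 to -3.56 and -1.58 to -0.81, and the Phe-GAA ratio by -0.75 to -0.27, -0.39 to 0.10 and -0.50 to -0.19, in these comparisons.

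The labels do not say whether replicate numbers pair the rats. Same-numbered libraries correlated at -0.12 to 0.25 in isoproterenol versus control and at -0.09 to 0.08 in the others. In isoproterenol versus control 1 of 5 pairs passed 0.1 and 2 of 5 libraries correlated best with their own number. Such correlations cannot decide whether the rats were paired. With the number as a block, 22 (restricted versus control), 15 (isoproterenol versus control) and 0 of these tRFs were called. Without the block these counts were 21, 15 and 0 of 34, where 58.4%, 47.9% and 0% of all tsRNAs were called. The Pro-TGG ratio differed by -5.14 and -4.04 within replicate numbers too. With 1 library per number in each group these means cannot differ from those above, so they say nothing on pairing. Depth limits the scarce tRFs: where 1 of the groups compared had 1 to 3 reads, as in tRF-Phe-GAA-002 and tRF-Pro-CGG-002, the intervals computed span more than 10-fold.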
